A study of Danio rerio with 69 samples.

Results

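Levels of pde6a, pde6ha and unc119.2 were described in zebrafish pineal gland and brain. The 3 genes were taken by name, as all probe sets that the platform annotation gives these symbols. They have 4 probe sets of 15502 tested and are 3 of 8793 named genes. Biotin-labelled cDNA was hybridized to the Affymetrix Zebrafish Genome Array, with 1 sample on each of 69 arrays, 38 of pineal gland and 31 of brain, in 20 groups of 2 to 5 labelled biological replicates. The groups crossed the tissue with 5 ages and with sampling by day or by night. Larvae were 3, 5 and 10 days old, and adults were 3 months or 1 to 2 years old. The colony was held at 28.5 °C, with lights on for 14 h of each day and off for 10 h. Pineal glands were dissected by hand, following the fluorescence of transgenic fish that carry GFP under the promoter of aanat2, a melatonin-synthesis gene. The brain samples were described as lacking the pineal gland and the eyes. The labels do not say how many fish made up a sample.

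Pineal photoreceptors of fish respond to light through a cascade much like that of retinal rods and cones. Light-activated opsin turns on the G protein transducin, which relieves the inhibition of phosphodiesterase 6 (PDE6); the enzyme then hydrolyses cyclic GMP and the cyclic nucleotide-gated channels close. The gene pde6a is named for the mammalian rod catalytic alpha subunit. The gene pde6ha is 1 of a pair of zebrafish genes named for the inhibitory gamma subunit of mammalian cones. In mammals, UNC119 proteins bind the lipid-modified end of transducin alpha and carry it between membranes, and the small GTPase ARL3 releases such cargo.

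The probe sets were Dr.9853.1.A1_at for pde6a, Dr.9908.1.A1_at for unc119.2, and Dr.10293.2.S1_a_at and Dr.10293.2.S1_at for pde6ha. The first of the pde6ha pair had the higher mean and stands for the gene; the other is called the second probe set. The gene identifier that the platform annotation pairs with unc119.2 was not found in the RefSeq gene table used here. That table lists unc119.2 as a synonym of unc119a2, a gene with 2 probe sets of its own on the array. The name of the annotation was kept, so values of unc119.2 are those of 1 probe set whose current gene name was not settled. A level is log2 of intensity plus 16 after quantile normalization. Levels of different probe sets cannot be compared with each other, and a fold on this scale understates a change from very low intensity.

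Tissue identity was read from marker lists, as summed intensity per array in units of 1000. The summed level of 8 pineal markers ranged from 2.25 to 10.2 on larval pineal arrays and from 17.8 to 42.4 on adult pineal arrays. On brain arrays it ranged from 0.334 to 0.905. All 8 pineal markers were higher in pineal than in brain. Markers of neighbouring tissues also moved, where 2.51% of all probe sets were called higher in pineal over all ages and 3.28% lower. Over all ages, of 15 muscle markers 15 were lower in pineal, of 12 skin markers 8 were higher and 1 lower, and of 11 neuron markers 5 were lower and 1 higher. These shifts differed by stage. The median muscle sum was 71.1 in larval brain and 1.39 in larval pineal, but 1.47 and 1.74 in adult brain and pineal. The median skin sum was 49.3 in larval brain and 71.3 in larval pineal, and 5.99 and 85.1 in adults. The part of other tissues in the differences below was not tested. In whole tissue, fewer cells of a type and less RNA per cell cannot be told apart. Median deposited intensity per array ran from 113.2 to 220.8. For GAPDH, signal of the control probe set at the 3' end relative to that at the 5' end (called the GAPDH ratio), which can rise as RNA degrades, exceeded 3 on 4 of 19 pineal and 6 of 15 brain arrays taken by day. By night it did so on 1 of 19 pineal and 0 of 16 brain arrays. Arrays above 3 are called arrays of high GAPDH ratio. Leaving them out keeps only 1 array, day replicate 3, in each adult brain day group.

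pde6a, named for the rod catalytic subunit, was a pineal transcript at every age, and its pineal level was markedly higher in adults. At 3 days its level was 9.36, 9.73 and 9.69 on the pineal day arrays and 9.38, 8.96, 9.27 and 8.81 on the pineal night arrays. At 5 days it was 10.01, 10.15, 10.15, 9.68 and 10.66 by day and 9.44, 8.98, 9.05 and 9.84 by night. At 10 days it was 9.70, 7.86, 9.86 and 9.45 by day and 9.29, 9.11, 8.91 and 8.90 by night. Day and night arrays overlapped at all larval ages, and day replicate 2 at 10 days was the lowest of all pineal arrays. At 3 months the level was 12.53, 12.34 and 12.86 by day and 12.61, 12.71 and 12.42 by night. At 1 to 2 years it was 12.51, 12.47, 12.50 and 12.94 by day and 13.03, 12.38, 12.93 and 12.87 by night. Every adult pineal array lay above every larval one, as for 1.41% of probe sets, and day and night overlapped at both adult ages.

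The brain level of pde6a was low and scattered. At 3 days it was 5.32, 5.01 and 4.87 by day and 6.68, 6.09, 5.19 and 4.44 by night. At 5 days it was 4.28, 5.44 and 5.84 by day and 6.08 and 6.16 by night. At 10 days it was 7.09, 4.37 and 5.99 by day and 6.51, 6.88, 6.30 and 6.65 by night. No larval brain array reached the lowest pineal array. At 3 months the level was 6.48, 7.11 and 8.39 by day and 5.69, 5.95 and 6.32 by night. At 1 to 2 years it was 5.89, 4.25 and 5.75 by day and 6.76, 7.16 and 5.33 by night. Day replicate 3 at 3 months was the only brain array whose pde6a exceeded the lowest larval pineal array, and it lay far below the pineal arrays of its own age. Night arrays were all above day arrays at 5 days, as for 10.9% of probe sets, and all below them at 3 months, as for 7.59%.

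**Figure D1:**
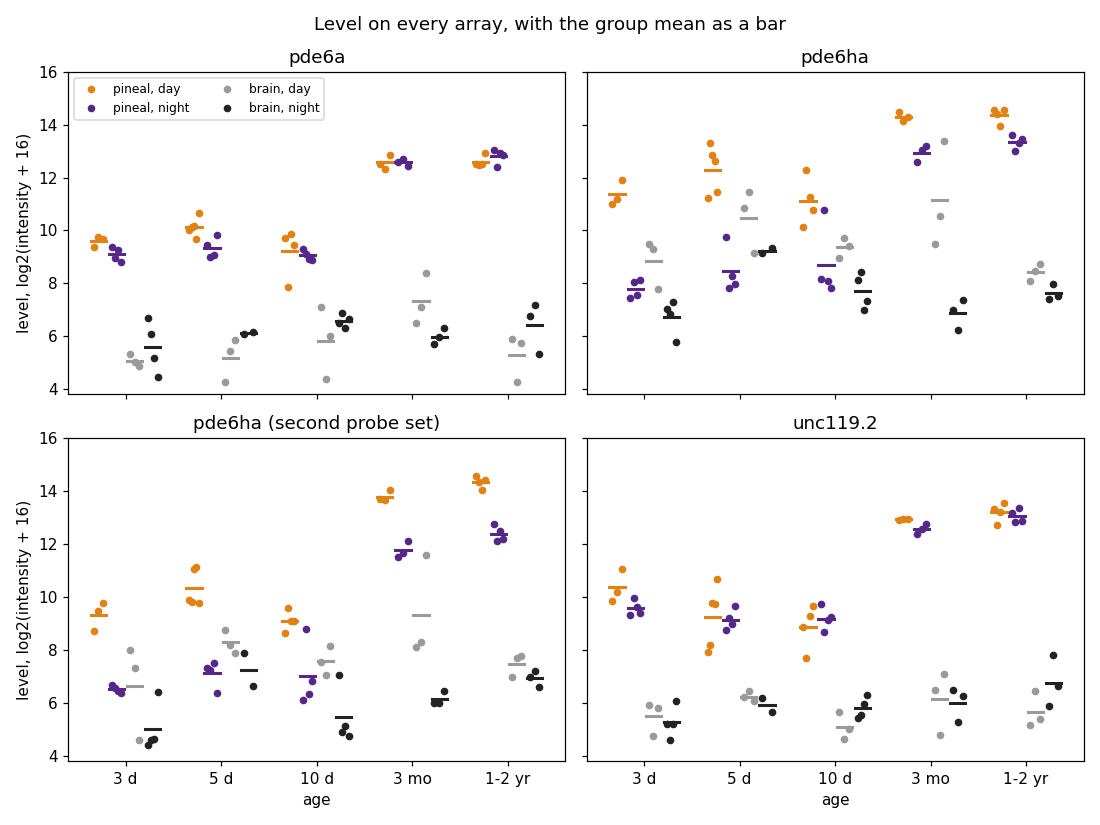
Level, as log2 of intensity plus 16, of each of the 4 probe sets on every one of the 69 arrays, by age, tissue and sampling time; each point is an array. pde6a and unc119.2 separate the tissues at every age, whereas pde6ha separates day from night at 4 of 5 ages in each tissue (3 in brain for its second probe set) and the tissues fully only at 1 to 2 years.

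unc119.2 was also a pineal transcript at every age and, like pde6a, stood highest in adult pineal. At 3 days its pineal level was 9.83, 10.19 and 11.08 by day and 9.33, 9.95, 9.63 and 9.41 by night. At 5 days it was 7.94, 8.17, 9.76, 9.75 and 10.69 by day and 8.74, 9.19, 8.97 and 9.66 by night. At 10 days it was 8.86, 7.69, 9.30 and 9.65 by day and 9.73, 8.66, 9.11 and 9.23 by night. The times overlapped at all larval ages, and the 5-day day arrays were the most scattered. At 3 months the level was 12.92, 12.96 and 12.94 by day and 12.38, 12.58 and 12.75 by night. At 1 to 2 years it was 13.33, 12.72, 13.21 and 13.55 by day and 13.19, 12.84, 13.37 and 12.89 by night. At 3 months all day arrays were above all night arrays, which held for 6.85% of probe sets; at no other age did the sampling times separate.

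In brain the unc119.2 level at 3 days was 5.91, 4.74 and 5.81 by day and 5.21, 4.60, 5.21 and 6.05 by night. At 5 days it was 6.20, 6.44 and 6.06 by day and 6.19 and 5.65 by night, and at 10 days 5.65, 4.62 and 5.00 by day and 5.42, 5.55, 5.97 and 6.29 by night. At 3 months it was 6.49, 4.78 and 7.10 by day and 6.48, 5.27 and 6.24 by night, and at 1 to 2 years 5.17, 6.44 and 5.40 by day and 5.86, 7.80 and 6.63 by night. The highest brain array was night replicate 2 at 1 to 2 years, far below the pineal arrays of that age.

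pde6ha, named for the cone inhibitory subunit, behaved otherwise: it was higher by day than by night in both tissues. Its brain levels by night reached down to 5.78, a level that 17.7% of probe sets on that array did not exceed, and no detection calls were used. At 3 days its pineal level was 11.02, 11.19 and 11.90 by day and 7.45, 8.04, 7.57 and 8.11 by night. At 5 days it was 11.21, 13.30, 12.85, 12.63 and 11.45 by day and 9.75, 7.81, 8.27 and 7.96 by night. At 10 days it was 10.15, 12.28, 11.26 and 10.76 by day and 8.16, 10.78, 8.08 and 7.81 by night. The sampling times separated fully at 3 and 5 days, with all night arrays below all day arrays, as for 6.27% and 0.91% of probe sets; at 10 days night replicate 2 lay among the day arrays. At 3 months the level was 14.50, 14.13 and 14.30 by day and 12.60, 13.06 and 13.18 by night. At 1 to 2 years it was 14.56, 14.42, 13.95 and 14.56 by day and 13.63, 13.02, 13.31 and 13.47 by night. Both adult ages separated day from night in the same direction, as for 6.85% and 2.7% of probe sets, and 3 larval day arrays, all at 5 days, exceeded the lowest adult night array.

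In brain the pde6ha level at 3 days was 9.48, 9.31 and 7.78 by day and 7.01, 6.83, 7.31 and 5.78 by night. At 5 days it was 10.84, 11.47 and 9.13 by day and 9.13 and 9.33 by night. At 10 days it was 8.94, 9.72 and 9.43 by day and 8.14, 8.41, 7.01 and 7.33 by night. All night arrays lay below all day arrays at 3 and 10 days, as for 6.67% and 3.66% of probe sets, but not at 5 days. At 3 months the level was 9.48, 10.56 and 13.38 by day and 6.996, 6.22 and 7.36 by night. At 1 to 2 years it was 8.07, 8.45 and 8.74 by day and 7.39, 7.99 and 7.52 by night. Both adult ages separated, as for 7.59% and 8.99% of probe sets, and the 13.38 of day replicate 3 at 3 months stood far above every other brain array.

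The second pde6ha probe set gave the same order of day and night. Its pineal level ranged by day from 8.73 to 9.79 at 3 days, 9.77 to 11.12 at 5 days, 8.64 to 9.57 at 10 days, 13.66 to 14.04 at 3 months and 14.04 to 14.58 at 1 to 2 years. By night it ranged from 6.37 to 6.65, 6.38 to 7.51, 6.09 to 8.79, 11.53 to 12.11 and 12.11 to 12.78 at the same ages. As for the first probe set, the times separated at every age but 10 days, where night replicate 2 was again the exception. In brain its levels ran from 4.41 to 8.74 in larvae and from 5.98 to 11.58 in adults, the highest again on day replicate 3 at 3 months.

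Ordered by group mean, pde6a was highest in 1- to 2-year pineal by night (12.80 ± 0.29, SD, n = 4) and lowest in 3-day brain by day (5.06 ± 0.23, SD, n = 3). Of the 19 gaps between neighbours in that order, 16 were no larger than the spread of the groups. The 3 gaps beyond it lay between the lowest adult pineal group, 3-month night at 12.58 ± 0.15 (SD, n = 3), and the highest larval one, 5-day day at 10.13 ± 0.35 (SD, n = 5); between that group and 3-day pineal by day; and between the lowest pineal and the highest brain group. For unc119.2 the order also ran from adult pineal through larval pineal to brain, with 15 of 19 gaps within the spread. For pde6ha 14 of 19 were within it, and the order was not one of tissue: 3-month brain by day, at 11.14 ± 2.01 (SD, n = 3), stood above 10-day pineal by day, at 11.11 ± 0.90 (SD, n = 4), by less than their spread. The brain groups of 5, 10 and 3 days by day, and that of 5 days by night, stood above every larval pineal night group. The lowest of them, 3-day brain by day at 8.86 ± 0.94 (SD, n = 3), exceeded 10-day pineal by night, at 8.71 ± 1.39 (SD, n = 4), by less than their spread.

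The tissue comparison asked which transcripts the pineal holds above the rest of the brain. All 4 probe sets were higher in pineal over all ages, by limma with an adjusted p below 0.05 and at least a 2-fold difference; of all probe sets 2.51% were. pde6a was 27.1-fold higher (log2 4.76 ± 0.14, SE, adjusted p = 2.93e-38) and unc119.2 was 31.6-fold higher (log2 4.98 ± 0.15, SE, adjusted p = 2.15e-38). pde6ha was 7.09-fold higher (log2 2.83 ± 0.18, SE, adjusted p = 3.16e-21) and its second probe set 8.92-fold (log2 3.16 ± 0.18, SE, adjusted p = 2.14e-23). Arrays of the tissues did not overlap at any of the 5 ages for pde6a and unc119.2, which held for 0.206% of probe sets. For both pde6ha probe sets they separated at 1 to 2 years alone, where 6.46% did.

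By age the pineal excess of pde6a was 16.2-fold at 3 days, 16.8-fold at 5 days, 7.64-fold at 10 days, 60.7-fold at 3 months and 115.0-fold at 1 to 2 years. For unc119.2 the same ages gave 24.2-fold, 8.72-fold, 11.96-fold, 103.5-fold and 121.2-fold. These were called at all 5 ages, at which 1.79%, 1.83%, 1.65%, 10.9% and 10.9% of probe sets were called higher. pde6ha was 3.45-fold higher at 3 days (adjusted p = 0.00109), 24.7-fold at 3 months and 57.1-fold at 1 to 2 years. At 5 days its difference of log2 0.51 ± 0.42 (SE) was not called (adjusted p = 0.562), and for the second probe set it was log2 0.95 ± 0.42 (SE, adjusted p = 0.189). At 10 days pde6ha was called at log2 1.37 ± 0.38 (SE, adjusted p = 0.0194). That call was lost without pineal day replicate 2 (1.17), pineal night replicate 2 (1.02), brain day replicate 1 (1.26) or brain night replicate 3 (1.25), without arrays of high GAPDH ratio (0.83), and when only the groups compared were fitted (adjusted p = 0.0519). The second probe set was called at 10 days (log2 1.54 ± 0.39, SE, adjusted p = 0.0067). By limma the cone opsin gene opn1sw1 was lower in pineal than in brain at 3 days (log2 -3.50, adjusted p = 9.88e-07). It was also lower at 5 days (-1.89, adjusted p = 0.024) and not called at later ages. At these 2 ages 2.98% and 3.35% of probe sets were called lower. The cone opsin gene opn1lw1 was called at the adult ages alone, as higher in pineal. The part of retinal tissue in the pde6ha differences was not tested.

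**Figure D2:**
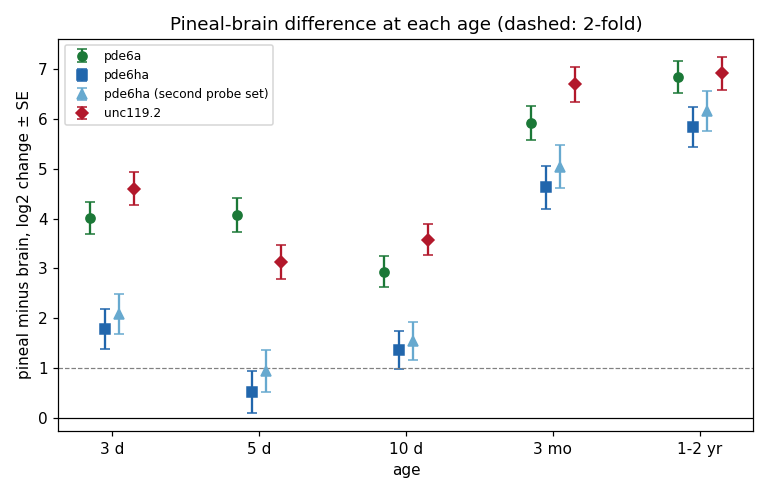
Pineal minus brain difference in log2 level (vertical axis, with its SE) at each of the 5 ages for the 4 probe sets; the dashed line marks 2-fold. pde6a and unc119.2 lie between 2.93 and 6.92, and pde6ha drops to 0.51 at 5 days before reaching 5.84 at 1 to 2 years.

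The pineal-brain difference changed with age for all 4 probe sets. A limma F-test over the 5 ages gave adjusted p = 8.74e-11 for pde6a, 1.48e-12 for pde6ha, 1.34e-12 for its second probe set and 2.48e-11 for unc119.2, and called 27.9% of all probe sets. The difference was larger in adults than in larvae by log2 2.71 ± 0.30 (SE) for pde6a, 4.01 ± 0.37 (SE) for pde6ha, 4.08 ± 0.38 (SE) for the second probe set and 3.04 ± 0.31 (SE) for unc119.2. All 4 were called, as were 12.3% of probe sets in that direction. Of the 15 muscle markers 15, and of the 12 skin markers 11, were called in the same direction, with medians of 4.81 and 3.50. Of the 11 neuron markers 9 were called in the other, as were 10.5% of probe sets. The median summed level of retina and lens markers was 0.931 in larval brain and 0.606 in larval pineal, and 0.502 and 5.13 in adults. The part of these tissues in the change with stage was not tested.

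The stage comparison within pineal showed the same genes rising between larva and adult. Adult pineal exceeded larval pineal 9.43-fold for pde6a (log2 3.24 ± 0.20, SE, adjusted p = 3.64e-22), 13.9-fold for pde6ha (log2 3.79 ± 0.25, SE, adjusted p = 8.67e-21) and 11.7-fold for unc119.2 (log2 3.54 ± 0.21, SE, adjusted p = 2.68e-23). The second pde6ha probe set rose 28.7-fold (log2 4.84 ± 0.25, SE, adjusted p = 1.14e-25). All 4 were called, against 8.46% of probe sets called higher. The step from 10 days to 3 months was called for all 4, at log2 3.44, 3.72, 4.72 and 3.73 for pde6a, pde6ha, its second probe set and unc119.2, and 10.9% of probe sets were called higher there. No other step was called for any of them: the changes lay between -0.77 and 0.80, where 2.66%, 6.73% and 0.123% of probe sets were called from 3 to 5 days, from 5 to 10 days and from 3 months to 1 to 2 years. Without arrays of high GAPDH ratio the second pde6ha probe set fell from 5 to 10 days (-1.10, adjusted p = 0.0112).

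Other markers moved with this stage difference, for which 8.46% of all probe sets were called higher and 7.13% lower. Of 8 pineal markers 6 were higher in adult pineal, with a median log2 change of 1.97. Of 8 erythrocyte markers 6 were higher and 2 lower, and of 11 neuron markers 1 was higher and 6 were lower. The summed retina and lens markers ranged from 0.424 to 1.67 on larval and from 2.66 to 13.8 on adult pineal arrays. Of these 13 genes 3 were called higher in adult pineal and 1 lower; opn1lw1, the red cone opsin, rose by log2 6.05. The part of these tissues in the stage difference was not tested.

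In brain none of the 4 probe sets was called between stages, where 4.99% were called higher and 6.61% lower. The changes were 0.53 ± 0.22 (SE) for pde6a, -0.22 ± 0.28 (SE) for pde6ha, 0.77 ± 0.28 (SE) for the second probe set and 0.50 ± 0.23 (SE) for unc119.2. Their adjusted p-values were 0.0528, 0.591, 0.0246 and 0.0775 by limma, and the third missed the 2-fold limit. The second probe set passed with an added constant of 1 (1.08), and without arrays of high GAPDH ratio its change was 1.498. That latter setting left 1 array, day replicate 3, in each adult brain day group. At 3 months this array read 11.58, against 8.13 and 8.31 on the day arrays left out.

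The night-day comparison in pineal asked which transcripts differ between the light and dark phase. Among these genes pde6ha fell at night, and neither pde6a nor unc119.2 was called. pde6ha was 5.43-fold lower by night over all ages (log2 -2.44 ± 0.24, SE, adjusted p = 1.45e-11) and its second probe set 5.36-fold lower (log2 -2.42 ± 0.24, SE, adjusted p = 2.14e-11). Of all probe sets 1.3% were called lower. pde6a differed by -0.25 ± 0.19 (SE, adjusted p = 0.614), with a 95% interval of -0.64 to 0.14. unc119.2 differed by -0.22 ± 0.20 (SE, adjusted p = 0.694), with a 95% interval of -0.62 to 0.18. For the mean over ages, the intervals of pde6a and unc119.2 therefore hold no difference as large as 2-fold. At single ages neither gene was called, but larger differences were within the intervals. pde6a gave -0.80 at 5 days (95% interval -1.59 to -0.01), and unc119.2 gave -0.79 at 3 days (95% interval -1.72 to 0.14).

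The members' night-day changes were compared with each other by permuting day and night within ages over the 38 pineal arrays, two-sided, with 100000 permutations and adjustment over 6 pairs. pde6ha fell by more than pde6a, by log2 2.19, and by more than unc119.2, by 2.22. Both gave p = 1e-05, the smallest these permutations can give (adjusted p = 1.5e-05), and the second probe set gave the same p against each. pde6a and unc119.2 differed by -0.03 (permutation p = 0.852). The pde6ha probe sets differed from each other by -0.02 (permutation p = 0.929).

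By age, pde6ha fell by night 11.95-fold at 3 days (log2 -3.58, adjusted p = 1.02e-04) and 14.3-fold at 5 days (-3.84, adjusted p = 1.44e-06), where 0.581% and 0.29% of probe sets were called lower. The second probe set fell by 2.83 and by 3.21 on the log2 scale. At 10 days, where 0.29% were called lower, pde6ha fell by 2.402 (adjusted p = 0.0139) and the second probe set by 2.08 (adjusted p = 0.0435). The 10-day call of pde6ha was lost without day replicate 2 (-2.01, adjusted p = 0.119) or night replicate 1, 3 or 4 (-2.22, -2.19 and -2.10), with array weights, and when only the groups compared were fitted. That of the second probe set was lost without day replicate 2 or 3 (-1.93 and -2.08) or night replicate 1, 3 or 4 (-1.78, -1.86 and -2.02), and with median centring, a constant of 1, array weights or only the groups compared. Without night replicate 2, the highest night array, both were larger: -3.09 for pde6ha (adjusted p = 2.83e-04) and -2.67 for the second probe set (adjusted p = 0.00513). At 10 days the GAPDH ratio was 10.4 on day replicate 2 and 6.67 on night replicate 2 and between 1.43 and 1.77 on the other 6 pineal arrays. The part of RNA quality in the 10-day values was not tested.

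In adults the night level of pde6ha was lower by 1.37 ± 0.60 (SE) at 3 months and by 1.02 ± 0.52 (SE) at 1 to 2 years, but neither difference was called (adjusted p = 0.876 and 0.63), with 0.0968% and 0.232% of probe sets called lower. The second probe set gave -2.03 ± 0.61 (SE, adjusted p = 0.225) and -1.96 ± 0.53 (SE, adjusted p = 0.0735). In a fit of the groups compared alone, which used the smaller spread of these arrays, pde6ha was called at 3 months (adjusted p = 0.00888), and the second probe set at 3 months (adjusted p = 6.44e-04) and at 1 to 2 years (adjusted p = 0.00137). The second probe set was also called with a constant of 64 (adjusted p = 0.0226 and 0.00424) and without arrays of high GAPDH ratio (0.0336 and 0.0332), at 3 months with array weights, and at 1 to 2 years without 3-day brain day replicate 3 or 3-month brain day replicate 3 (adjusted p = 0.0373 and 0.0328), which changed the spread that all groups share.

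Night below day without overlap occurred at 4 of 5 ages for both pde6ha probe sets, as for 0.103% of probe sets at 4 or more ages. The F-test of whether the pineal night-day difference changed over the ages did not call pde6ha (adjusted p = 0.0808) or its second probe set (0.712); it called 0.258% of probe sets. pde6ha passed without 5-day pineal night replicate 1 (adjusted p = 0.0459), 10-day pineal night replicate 2 (0.0468) or 3-month brain day replicate 3 (0.0389), and without arrays of high GAPDH ratio (0.00651).

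**Figure D3:**
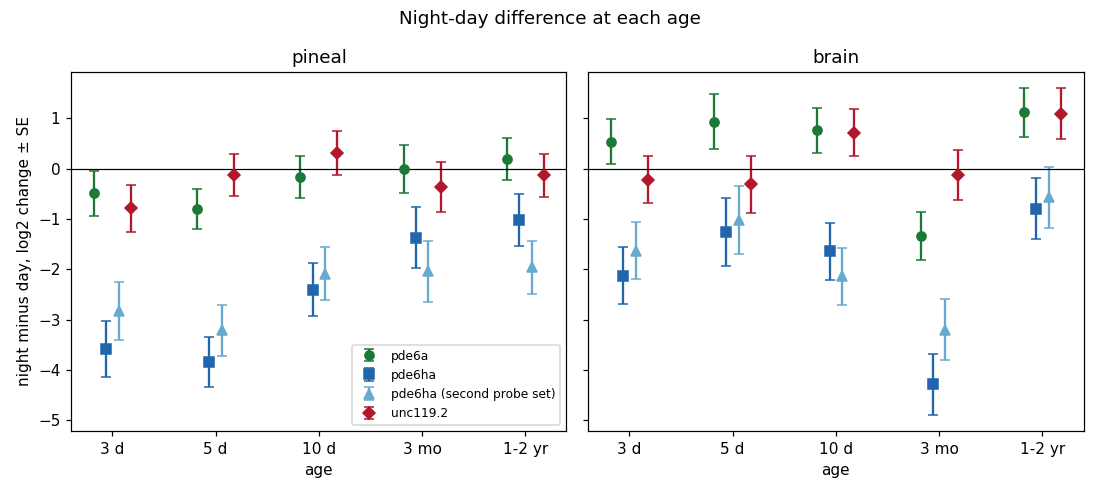
Night minus day difference in log2 level (vertical axis, with its SE) at each of the 5 ages in pineal and in brain for the 4 probe sets. The pde6ha probe sets lie below 0 at every age in both tissues, down to -3.84 in pineal at 5 days and -4.28 in brain at 3 months.

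pde6ha also fell by night in brain samples, which were described as lacking pineal and eyes. Some of these arrays still held cone opsin signal: opn1sw2 ranged from 4.45 to 10.54 on them. Over all ages it was 4.05-fold lower (log2 -2.02 ± 0.27, SE, adjusted p = 3.05e-07), and the second probe set 3.27-fold lower (log2 -1.71 ± 0.27, SE, adjusted p = 2.35e-05), with 0.548% of probe sets called lower. pde6a and unc119.2 differed by 0.40 ± 0.21 (SE, adjusted p = 0.489) and 0.23 ± 0.22 (SE, adjusted p = 0.782). Their brain levels were low already by day, with group means of 5.06 to 7.33 for pde6a and 5.09 to 6.23 for unc119.2. A fall by night from such levels could be missed. Night below day without overlap held at 4 of 5 ages for pde6ha, as for 0.135% of probe sets at 4 or more, and at 3 ages for the second probe set, as for 0.774% at 3 or more. Of the single ages only 3 months was called, at -4.28 ± 0.60 (SE, adjusted p = 4.99e-06) for pde6ha and -3.20 ± 0.61 (SE, adjusted p = 0.00247) for the second probe set, where 0.103% were called lower. At 3, 5 and 10 days and 1 to 2 years pde6ha gave -2.13, -1.25, -1.64 and -0.79, none of them called, where 0.0387%, 0.142%, 0.0516% and 0.226% of probe sets were called lower. At 3 days both probe sets were called without day replicate 3 (-2.67 and -2.65), which was the lowest day array, and both with array weights. Day replicate 3 had summed retina and lens markers of 0.662. Day replicates 1 and 2, on which that call then rested, had 3.16 and 2.33, and replicate 1 a GAPDH ratio of 6.09. By night the sum ran from 0.899 to 3.62 at this age. At 10 days the second probe set, at -2.14 (adjusted p = 0.245), was called without night replicate 1 (-2.67), the highest night array, with array weights and without arrays of high GAPDH ratio.

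Day replicate 3 of 3-month brain carried much of the 3-month values. Its median deposited intensity, 113.2, was the lowest of all 69 arrays. Without this array pde6ha remained called at -3.16, and the second probe set, at -2.08, was not (adjusted p = 0.249). Over all ages the values without it were -1.79 and -1.49, both called. With only the groups compared in the fit, neither was called at 3 months (adjusted p = 0.127 and 0.191). Of the 13 retina and lens markers the 6 cone opsins were highest there among the day arrays of its group: opn1mw2 read 7.33, 7.88 and 10.89, opn1sw2 6.79, 7.60 and 10.54, opn1lw1 6.16, 7.05 and 9.69, opn1sw1 5.73, 6.29 and 9.09, opn1mw1 5.997, 5.54 and 8.29, and opn1mw4 6.79, 4.87 and 7.27, the last value of each on replicate 3. So was the rod transducin gene gnat1, outside that list, at 6.60, 7.96 and 9.94. Other retinal genes did not all follow: the homeobox gene rx1 was lowest there (6.25, 6.59 and 4.48), rx2 was close to the others (5.86, 6.11 and 6.17), and vsx1 was higher (4.96, 4.62 and 6.80). Its summed retina and lens markers came to 5.43, against 0.673 and 0.840 on the other day arrays and 0.263 to 0.338 by night. Its summed pineal markers, at 0.657, lay within the range of the other brain arrays, and the lens crystallins cryaa (4.55, 4.34 and 4.45) and crybb1 (6.03, 4.48 and 5.57) were not highest there, while cryba4 (4.74, 6.10 and 6.36) and crygs2 (4.87, 4.94 and 5.77) were.

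The retina and lens sum was above 2 on 6 brain arrays. Without these 6, the night-day change in brain was -1.68 for pde6ha and -0.85 for its second probe set. That left 1 array in 3-day brain by day and 1 in 5-day brain by night. On the adult brain arrays kept, the sum was still higher by day. At 3 months it was 0.673 and 0.840 by day against 0.263 to 0.338 by night. At 1 to 2 years it was 0.530 to 0.590 against 0.416 to 0.473. Sampling time and that sum therefore cannot be told apart there. In brain arrays alone with the log2 of that sum in the fit, the falls were 1.85 and 1.55 on the log2 scale (adjusted p = 2.58e-06 and 0.00251), while the 3-month calls were lost (-2.50 and -1.43, adjusted p = 0.246 and 0.922). Both of these alternatives were chosen after seeing the data. The sum holds lens crystallins as well as cone opsins. On 5-day brain night replicate 2, with a sum of 4.01, the crystallins cryba4 and crybb1 read 10.79 and 9.90. Neither alternative therefore adjusts for photoreceptor tissue alone. Of 8 pineal markers, 0 were called between night and day in brain by limma, with a median log2 change of 0.02. None passed an unadjusted p below 0.05 either. Of all probe sets only 0.922% were called, so 0 calls in so short a list say little. Mean brain levels of these markers were low, from 4.76 for otx5 to 7.27 for tph2, and changes there could be missed. The parts of eye and of pineal tissue in the pde6ha values of brain were not tested.

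**Figure D4:**
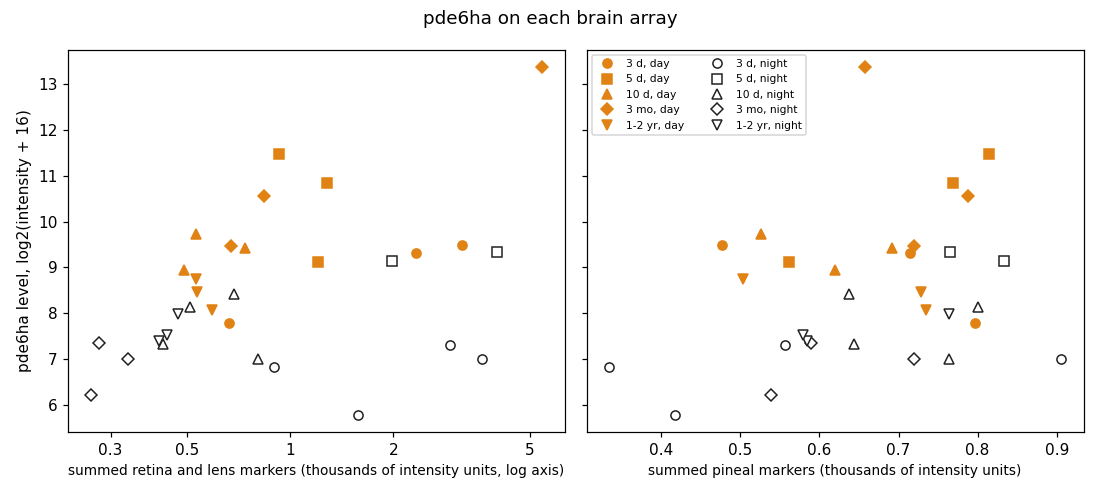
pde6ha level, as log2 of intensity plus 16, on each of the 31 brain arrays against the summed intensity of 13 retina and lens markers (left, log axis) and of 8 pineal markers (right), in units of 1000; filled points are day and open points night arrays. The 3-month day array at 13.38 has the highest retina and lens sum, 5.43, and a pineal sum of 0.657. Larval night arrays with retina and lens sums above 2 lie between 7.01 and 9.33. The larval day arrays with such sums, replicates 1 and 2 at 3 days, lie at 9.48 and 9.31.

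The night-day difference was not called as differing between pineal and brain for any of the 4 probe sets; 0.129% of probe sets were called. The difference in pineal minus that in brain was -0.42 ± 0.36 (SE, adjusted p = 0.987) for pde6ha, -0.71 ± 0.37 (SE, adjusted p = 0.888) for its second probe set, -0.66 ± 0.29 (SE, adjusted p = 0.801) for pde6a and -0.45 ± 0.30 (SE, adjusted p = 0.948) for unc119.2. The 95% interval for pde6ha, -1.15 to 0.30, leaves room for a difference of more than 2-fold. That for pde6a held negative values only. The pde6ha value averages single ages of opposite sign, none of them called. At 3, 5 and 10 days it was -1.45, -2.59 ± 0.84 (SE) and -0.76. At 3 months it was 2.91 ± 0.85 (SE), resting partly on brain day replicate 3, and at 1 to 2 years -0.23. A like change in both tissues at each age is therefore not shown. Without the 6 brain arrays of high retina and lens sum, the value of the second probe set over all ages was -1.57. That setting left 1 array in 3-day brain by day and 1 in 5-day brain by night.

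Of the 8 PDE6 genes listed, 4 were measured. All 4 were higher in pineal than in brain, with a median log2 change of 3.65 against -0.01 for all genes. Of all probe sets 2.51% were called higher. The 4 include the members pde6a and pde6ha, which were chosen with earlier results of these data known. pde6c, the cone catalytic subunit, was higher by 4.07 ± 0.17 (SE) and, like pde6a, was not called between night and day (-0.39 ± 0.23, SE, adjusted p = 0.453). pde6hb, the other cone-type inhibitory gene, was higher by 3.22 ± 0.17 (SE) and, like pde6ha, fell by night in pineal (-1.16 ± 0.22, SE, adjusted p = 4.75e-04). It fell at 1 to 2 years (-1.999, adjusted p = 0.0348), an age at which pde6ha was not called, and at no other single age. In brain pde6hb was not called by night (-0.38 ± 0.25, SE, adjusted p = 0.608). Whether its changes differ from those of pde6ha was not tested.

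With stage, pde6c rose in pineal by 3.08 ± 0.24 (SE), and pde6hb was not called (0.42 ± 0.23, SE, adjusted p = 0.13). In brain both were lower in adults, pde6c by 1.02 and pde6hb by 1.41 on the log2 scale, with adjusted p = 0.00114 and 5.72e-06. Adult brain had lower retina and lens sums than larval brain, with medians of 0.502 and 0.931, and the part of retinal tissue in these falls was not tested.

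Of 21 genes listed for the UNC119 family and carriers of lipid-modified proteins, 9 were measured. unc119.2 and the Arl3-like GTPase genes arl3l2 (3.15 ± 0.15, SE) and arl3l1 (2.23 ± 0.15, SE) were higher in pineal, and none was lower. Of all probe sets 2.51% were called higher and 3.28% lower, and unc119.2 is itself a member chosen with earlier results known. The other 6 genes of the list were not called: unc119a1, unc119a2, unc119b, arl2, arl2bp and rp2. Among them unc119a2, of which the RefSeq table gives unc119.2 as a synonym, differed between tissues by 0.39 ± 0.11 (SE) on its first probe set and by -0.24 ± 0.13 (SE) on its second, far from the 4.98 of the unc119.2 probe set. arl3l1 fell by night in pineal (-0.83 ± 0.21, SE, adjusted p = 0.011), and so did the second probe set of unc119a2 (-0.65 ± 0.18, SE, adjusted p = 0.0244), though not the first (-0.01 ± 0.15, SE). With stage, unc119.2, arl3l2 (2.67 ± 0.20, SE) and arl3l1 (1.68 ± 0.21, SE) rose in pineal.

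**Figure D5:**
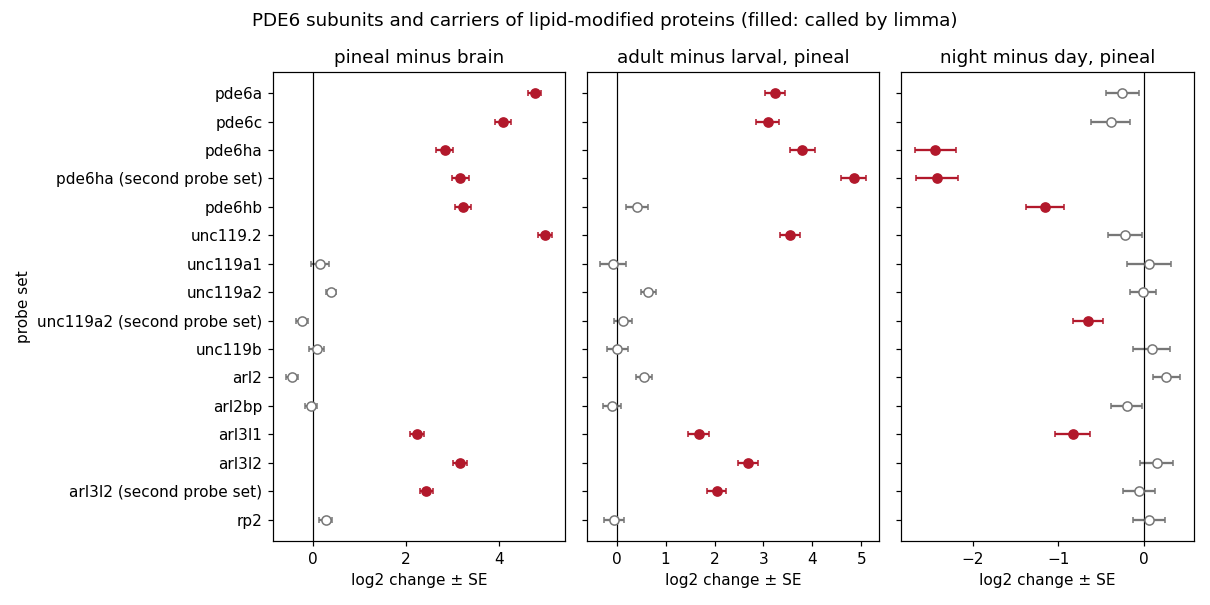
Pineal minus brain, adult minus larval pineal, and night minus day pineal differences in log2 level, each with its SE, for the measured PDE6 genes and the measured UNC119 family and carrier genes. The 4 PDE6 genes, unc119.2, arl3l2 and arl3l1 lie to the pineal side by more than 2-fold; pde6ha, pde6hb, arl3l1 and the second unc119a2 probe set are called on the day side.

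Of 27 other cyclic nucleotide phosphodiesterases listed, 5 were measured. None was higher in pineal, and pde4ba (-1.18 ± 0.09, SE) and pde9aa (-1.44 ± 0.16, SE) were lower; none was called between night and day. Of 65 other phototransduction genes listed, 30 were measured, and 16 were higher in pineal and 0 lower, with a median log2 change of 1.20; of all probe sets 2.51% were higher and 3.28% lower. The transducin gamma gene gngt1 was higher by 5.70 ± 0.17 (SE) and not called between night and day (0.05 ± 0.22, SE). By night in pineal 1 of the 30 rose, the guanylyl cyclase activator gene guca1aa (1.31 ± 0.22, SE), and 2 fell, the recoverin genes rcvrn3 (-1.14 ± 0.18, SE) and rcvrn2 (-0.98 ± 0.27, SE), where 1.34% of all probe sets rose and 1.3% fell. With stage 20 rose in pineal and 1 fell, against 8.46% and 7.13% of all probe sets.

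The genes whose pattern was most like each member were ranked by Pearson correlation over the 20 group means among 8107 genes, as a description, since all means come from the same arrays. For pde6a they were asip2b (r = 0.98), the photoreceptor guanylyl cyclase gene gucy2f (0.98), the tryptophan hydroxylase gene tph2 (0.98), the retinaldehyde-binding protein gene rlbp1a (0.97) and the retinol transporter gene stra6 (0.97). For unc119.2 they began with asip2b (0.98), tph2 (0.98), arl3l2 (0.98) and gucy2f (0.98). pde6a and unc119.2 correlated with each other at 0.98 over the same means. For pde6ha the likeness was weaker: ccdc181 (0.87), the co-chaperone gene dnajb1b (0.87), arl3l1 (0.87), the retinoid-binding protein gene rbp3 (0.86) and opn1lw1 (0.83). Of these, rbp3 fell by night in pineal (-2.64 ± 0.25, SE, adjusted p = 1.83e-12) and in brain (-1.12 ± 0.28, SE, adjusted p = 0.0225), as pde6ha did. By the same comparisons arl3l1 was called in pineal alone, and ccdc181, dnajb1b and opn1lw1 in neither tissue. For the second pde6ha probe set the genes most alike did not include rbp3. They were opn1lw1 (0.90), arl3l1 (0.90), elovl4b (0.89), fdft1 (0.89) and slc26a5 (0.88).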

How the data were processed

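For each of 15617 probe sets the deposited table gives a linear intensity on every array. The mean of an array without the highest and lowest 2% of values was 500.1 to 500.2, so the authors had scaled the deposited intensity values to a common target. The algorithm that combined probes, and any background correction, are not given in the sources used here. No detection calls were used.

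Log2 of intensity plus 16 was quantile normalized, and 115 control probe sets were left out. Names came from the platform annotation, updated through gene identifiers: 10795 probe sets had 1 symbol, 135 several, and 4572 were unnamed here. A gene with several probe sets was represented by that of highest mean. limma 3.58.1 in R 4.3.3 fitted a mean per group (eBayes with a trend on level, 49 residual and 14.3 prior degrees of freedom) on the whole table. Tests were two-sided, with Benjamini-Hochberg adjustment within each contrast over 15502 probe sets. A probe set was called at an adjusted p below 0.05, with at least a 2-fold difference as well between tissues or stages. Ages and sampling times had equal weight. P-values measure the spread between labelled biological replicates. The steps were tested on simulated data.

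The genes named were the members, their listed relatives, up to 4 called genes of each other list with the smallest adjusted p, and for each member the 5 genes most alike; further marker genes were named after their values were seen. The members and lists were chosen with earlier results of these data known. Same-numbered arrays correlated above 0.1 in 11 of 31 pineal-brain pairs, with a median of 0.075 and a range of -0.017 to 0.368. Of 32 day-night pairs 2 did, with a median of 0.028 and a range of -0.162 to 0.167. Pineal-brain pairs thus leaned to positive values, and whether a number joins samples was not settled. The pair values were not correlations of the levels themselves, which ran from 0.767 to 0.971 between arrays of the same group. The main fit did not pair samples by number, and a replicate block was fitted as an alternative.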

Additional observations from a re-analysis of the deposited data

Results flagged for a closer look

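The pineal-brain difference was larger in adults than in larvae for each probe set, by log2 2.71 for pde6a, 4.01 for pde6ha, 4.08 for its second probe set and 3.04 for unc119.2 (limma). The same difference varied over the 5 ages by the limma F-test, with adjusted p = 8.74e-11, 1.48e-12, 1.34e-12 and 2.48e-11 in that order.

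Of 36 combinations of a probe set and a group of 4 or more arrays, 4 held an array set far apart from the others of its group; chance alone gives about 1 in 20. pde6a was 12.94 on day replicate 4 of pineal at 1 to 2 years, and pde6ha was 10.78 on night replicate 2 of pineal at 10 days. The second pde6ha probe set was 6.42 on night replicate 4 of brain at 3 days and 7.05 on night replicate 1 of brain at 10 days.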

How the results depend on the processing

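No member value that was called changed sign under any alternative. Of 1072 member values under other scalings, constants, filters and fits, 1042 kept their side of the threshold, 10 lost a call and 20 gained one. Leaving out 1 array kept 7706 of 7728, with 14 lost and 8 gained. A value called in neither fit counted as kept even if its sign turned. The number of arrays and, for brain, intensities near the added constant limit the precision.

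Counts of called probe sets moved more. For night against day in brain, 143 became 82 with median centring, 1451 with array weights, 372 with only the groups compared, 51 with the GAPDH ratio in the fit and 38 without arrays of high ratio, 50 without the 6 brain arrays of high retina and lens sum and 395 with that sum in the fit; leaving out 1 array gave 82 to 366. For the pineal-against-brain difference in night-day change, 20 became 10, 87, 9 and 13 with median centring, array weights, no high GAPDH ratio and no high retina and lens sum, and leaving out 1 array gave 9 to 28. For the change of the pineal night-day difference over ages, 40 became 22 with median centring, 69 with a constant of 64, 7 with only the groups compared, 92 with the GAPDH ratio in the fit and 112 without high ratios, and leaving out 1 array gave 26 to 95. Night against day in pineal gave 235 with only the groups compared in place of 409, and adult against larval brain gave 1187 with a constant of 64 in place of 1797. The causes were not tested.

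The second pde6ha probe set was called higher in adult brain with a constant of 1 (1.08) and with the retina and lens sum in the fit (1.63). Without high GAPDH ratios its change was 1.498, with 1 array left in each adult brain day group. Without the brain arrays of high retina and lens sum, the second probe set changed by night in brain by -0.85. Its night-day difference between tissues was then -1.57. That setting left 1 array in 3-day brain by day and 1 in 5-day brain by night. The F-test over ages for pde6ha gave adjusted p = 0.00651 without high GAPDH ratios and 0.0489 without those brain arrays; leaving out 1 array gave 0.0389 to 0.134. The cause was not tested.

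With the replicate block, not used in the main fit, the pineal-brain differences of pde6a, pde6ha, its second probe set and unc119.2 were 4.72, 2.88, 3.17 and 4.87. In the same order the pineal night-day differences were -0.20, -2.50, -2.44 and -0.14. The block called 915 probe sets between tissues and 437 between night and day in pineal. Of the member calls it changed only that of the second pde6ha probe set at 1 to 2 years by night (-1.96, adjusted p = 0.0321).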
